A study of Mus musculus with 4 samples.

Results

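Transcript levels of 9 transcription factors of the neuroendocrine lineage were followed in normal mouse prostate and in prostate tumours of the TRAMP model. The factors are Insm1, Foxa2, Onecut2, Prox1, Hes6, Sox2, Pou3f2, Neurod1 and Rest. They were taken by symbol from the deposited gene tables, and 9 of 9 were found among 24319 gene names. RNA was sequenced from 2 prostates of wild-type males aged 22 weeks and from 2 late-stage tumours of males aged 24 weeks, with 24 to 28 weeks given per the labels' protocols. Every animal was a male of the F1 generation between C57BL/6 and FVB. The tumour-bearing males were heterozygous for a transgene in which the rat probasin promoter, which is active in prostate epithelium, drives the SV40 T antigen. Each library holds RNA of a whole dissected tissue, so fewer cells of a type and less RNA per cell cannot be told apart. Whether the tumours are from separate mice is not stated in the labels, so a p-value here covers only the spread among these samples, which may be technical.

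Neuroendocrine cells are rare hormone-storing cells of the prostate epithelium, and tumours of their kind lose luminal features. Neurod1 is a basic helix-loop-helix activator of the neuroendocrine programme, and Insm1 is a zinc finger factor that acts with such activators in endocrine and neural precursors. Foxa2 is a pioneer factor that opens chromatin, Sox2 and Pou3f2 (also called Brn2) are partners in neural progenitors, and Onecut2 and Prox1 are homeodomain factors of liver, endocrine and neural development. Hes6 opposes Hes1, the Notch target that holds proneural factors down. Rest works in the other direction from the rest of the set, since it silences neuronal genes outside the nervous system.

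Start-site windows are shown for 4 factors, Prox1 and Hes6 because they rose in the tumours and Foxa2 and Sox2 because they were highest in tumour 2 alone. Each run is the 250 bases before the RefSeq start site nearest to the 5′ end of the deposited gene, read 5′ to 3′ on the gene's strand in GRCm38.p6, and capitals mark CpG dinucleotides, the usual site of cytosine methylation. For Prox1 that start site lies 147 bases from the deposited one.
Prox1 (chr1:190170828-190171077, minus strand): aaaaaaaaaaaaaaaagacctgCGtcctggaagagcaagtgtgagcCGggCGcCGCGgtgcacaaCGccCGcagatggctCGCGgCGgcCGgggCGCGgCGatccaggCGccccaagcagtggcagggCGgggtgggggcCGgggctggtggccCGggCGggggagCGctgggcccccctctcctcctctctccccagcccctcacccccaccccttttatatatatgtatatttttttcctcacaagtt
Hes6 (chr1:91413223-91413472, minus strand): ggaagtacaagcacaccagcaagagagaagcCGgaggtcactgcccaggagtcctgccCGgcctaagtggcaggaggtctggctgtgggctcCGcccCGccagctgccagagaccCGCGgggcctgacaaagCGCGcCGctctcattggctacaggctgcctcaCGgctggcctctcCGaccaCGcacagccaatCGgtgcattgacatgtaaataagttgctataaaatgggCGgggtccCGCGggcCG
Foxa2 (chr2:148046970-148047219, minus strand): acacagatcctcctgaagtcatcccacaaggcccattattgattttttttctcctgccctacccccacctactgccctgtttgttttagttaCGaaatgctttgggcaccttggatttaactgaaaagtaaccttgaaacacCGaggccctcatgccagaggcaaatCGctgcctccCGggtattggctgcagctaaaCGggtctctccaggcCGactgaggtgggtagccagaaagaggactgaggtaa
Sox2 (chr3:34649745-34649994, plus strand): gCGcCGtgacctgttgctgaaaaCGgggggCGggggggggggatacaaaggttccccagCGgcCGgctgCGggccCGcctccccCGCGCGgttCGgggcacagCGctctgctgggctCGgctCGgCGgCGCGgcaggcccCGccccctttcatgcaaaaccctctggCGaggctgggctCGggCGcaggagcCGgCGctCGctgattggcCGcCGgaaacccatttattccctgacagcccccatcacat
Windows of 6 of the 9 factors were matched, all but Insm1, Onecut2 and Rest. Over 32841 such windows the median number of CpG dinucleotides was 6. The Foxa2 window held 6 and lay at that median, while the others held more, with 27 for Sox2, 22 for Neurod1, 20 for Prox1, 18 for Pou3f2 and 17 for Hes6. At least as many as in the Sox2 window were found in 8.57% of all windows, and at least as many as in the Hes6 window in 23.5%. The bHLH E-box CAGNTG, searched on both strands, was found in the windows of Prox1 and Hes6 only among the 6, against 44.8% of all windows. Neither arm of the Rest site, searched as CAGCACC and as GGACAG on both strands, was found in the 6 windows, against 5.73% and 18.7% of all windows. These are matches of letters and no measure of binding, and methylation was not analysed here.

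The members lay at the following positions of the mm10 build. Insm1 is on chromosome 2 (146221997 to 146225018), as are Foxa2 (148042877 to 148046969) and Neurod1 (79452641 to 79456636). Prox1 (190121777 to 190170680) and Hes6 (91411483 to 91413222) are on chromosome 1, Sox2 on chromosome 3 (34650005 to 34652460), Pou3f2 on chromosome 4 (22482095 to 22488366), Rest on chromosome 5 (77265494 to 77283697) and Onecut2 on chromosome 18 (64340364 to 64398488). Insm1, Sox2 and Pou3f2 have 1 exon in GENCODE M21, and the coding transcripts of Prox1 have 5. Sox2 lies inside the noncoding gene Sox2ot on the same strand, Neurod1 overlaps Cerkl on the same strand, and Prox1 overlaps Prox1os on the opposite strand.

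The tables hold FPKM, a fragment number set to transcript length and library size. Unless called deposited, levels below are FPKM divided by a factor per library that brings the median gene to a common level (scaled FPKM). Implied fragments, derived from how wide the Cufflinks interval of a value is, summed to between 985509 and 1578847 per library. The limma fit over 13162 genes called 1296 as higher and 1088 as lower in tumour (Benjamini-Hochberg), so that 54.4% of calls were higher. With FPKM as deposited this share was 89.6%, and with libraries set to equal FPKM sums, leaving out genes above 1%, it was 82.1%. The unscaled values move the median log2 fold change of all genes from 0.07 to 0.86. With limma, leaving out normal 1 or normal 2 left 0 genes called in either direction, while 2189 and 2192 had an unadjusted p under 0.05. Tumour 1 stood apart in part of its epithelial genes. The prostate-defining Pbsn and the epithelial cadherin gene Cdh1 were listed at 0 there. So were 8 of 23 luminal genes, against 1 in tumour 2 and 0 in either normal prostate. Of the 13162 genes tested, 738 were listed at 0 in tumour 1, 152 in tumour 2, and 1084 and 965 in the normal prostates. Some luminal genes were not lower in tumour 1 than in tumour 2, such as Foxa1 (39.6 and 38.2), Gata2 (12.4 and 7.67) and Hoxb13 (295 and 160).

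Insm1, Prox1 and Hes6 rose in the tumours, and none of the 9 factors fell. That is 3 of the 6 members that entered the test, where 9.85% of all genes tested were called higher and 8.27% lower. An unadjusted p under 0.05 was reached by 4 of the 6, against 39.8% of all genes tested. Insm1, Prox1 and Pou3f2 reached the filter through the tumours alone, so that a difference was built into their entry and the count supports nothing beyond itself. Sox2, Pou3f2 and Rest were tested and did not pass. Foxa2, Onecut2 and Neurod1 did not reach an FPKM of 1 in 2 libraries and have values only.

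Insm1 was the most abundant of the 9 in tumour 1. It was listed at 0 in normal 1 and lay at 0.112 in normal 2, on 0.2 implied fragments, against 102 in tumour 1 and 47.5 in tumour 2. The groups did not overlap, and both tumours were above both normal prostates for 37.7% of genes tested and below them for 33.3%. The log2 fold change on log2(scaled FPKM + 1) was 6.07 (SE 0.50, limma adjusted p = 0.0195, 0.0157 to 0.292 over the alternatives run). Its size rests on the pseudocount, since the normal level is at the floor, and it was 8.90 with a pseudocount of 0.1. In tumour 1 Insm1 ranked 514 of 14423 genes listed above 0, and in tumour 2 it ranked 1197 of 15623.

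Neither normal prostate had a Prox1 value above 0, and the tumours lay at 23.6 (tumour 1) and 20.5 (tumour 2), so no fold change is given. The deposited intervals of the tumours, 27.36 to 35.97 and 25.95 to 35.52 FPKM, overlapped. Its limma adjusted p was 0.0195, with 0.0101 to 0.292 over the alternatives run. Listing at 0 in both normal prostates with a value above 0 in both tumours was shared by 656 genes, 4.98% of those tested. Of the members present in both tumours, Hes6 and Prox1 differed least between them, by 1.03 and 1.15 times, while Sox2 differed by 8.86 times.

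Hes6 alone was well expressed in normal prostate. It lay at 35.3 and 39.5 there and at 81.1 and 78.5 in the tumours. Each tumour was above each normal prostate and the spread within a group was small. The log2 fold change was 1.07 (SE 0.25, limma adjusted p = 0.0481), a ratio of 2.11. Its size rests on the scaling, with 2.00 on the log2 scale when FPKM was left unscaled and 1.72 with equal FPKM sums. This call sits at the threshold. It was kept in 5 of 13 alternatives and lost, among others, by voom on the implied fragments (adjusted p = 0.0744), with the filter on low values dropped (0.0659) and the intensity trend dropped (0.0827), over a range of 0.0174 to 0.332.

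**Figure D1:**
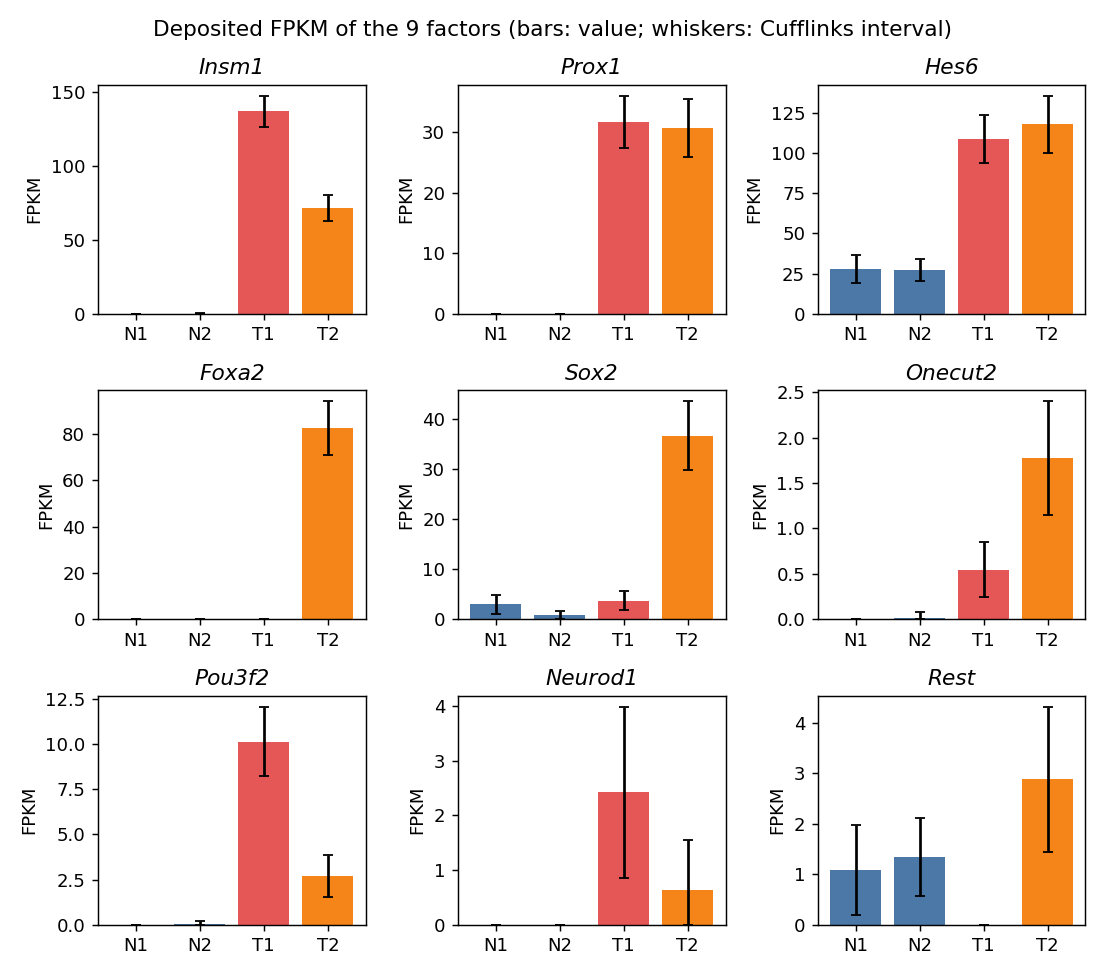
Deposited FPKM of each factor in normal prostates N1 and N2 and tumours T1 and T2, with the Cufflinks interval as whiskers and a vertical axis per gene. Insm1, Prox1 and Hes6 stand high in both tumours, Foxa2 and Sox2 in tumour 2, and Rest is listed at 0 in tumour 1.

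Foxa2 was present in 1 of the 4 libraries. It was listed at 0 in normal 1, normal 2 and tumour 1 and lay at 55.0 in tumour 2, on 205.8 implied fragments and with a deposited interval of 71.1 to 94.1 FPKM. There it was the second of the 9 in level, after Hes6, and 1.44 times the level of Foxa1, its paralog of luminal epithelium. Of 17072 genes listed above 0 in any library, 66 (0.387%) were listed at 0 in all but tumour 2 and reached 5 there, against 22 (0.129%) with the same pattern for tumour 1. A single library carries the value, so there is no replicate check on it. When it was admitted by a filter of 1 library, its limma adjusted p was 0.325.

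Sox2 was also highest in tumour 2. It lay at 3.72 and 1.12 in the normal prostates, at 2.75 in tumour 1 and at 24.4 in tumour 2. Tumour 1 lay between the normal prostates, and the groups overlapped (log2 fold change 1.63, SE 1.04, limma adjusted p = 0.292). The deposited interval in tumour 2, 29.7 to 43.5 FPKM, lay above that in tumour 1, 1.77 to 5.62 FPKM. Sox2ot, which contains Sox2, lay at 0.168 and 0.455 in the normal prostates, 3.43 in tumour 1 and 1.67 in tumour 2. The tumour values rest on 21.9 and 9.0 implied fragments. Their deposited intervals, 2.64 to 6.58 and 0.838 to 4.18 FPKM, overlapped, so the order of the tumours was not resolved.

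Onecut2 stayed low in every library. It was listed at 0 in normal 1 and lay at 0.0239 in normal 2, at 0.407 in tumour 1 and at 1.18 in tumour 2, the last on 31.9 implied fragments. The tumours were above the normal prostates and their deposited intervals, 0.244 to 0.851 and 1.15 to 2.40 FPKM, did not overlap. The related Onecut1, listed at 0 in both normal prostates, lay higher than Onecut2 in both tumours, at 3.31 and 2.40, by 8.13 and 2.03 times.

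Pou3f2 and Neurod1 had the opposite tilt, toward tumour 1. Pou3f2 was listed at 0 in normal 1, lay at 0.0519 in normal 2 on 0.2 implied fragments, and reached 7.56 in tumour 1 and 1.80 in tumour 2. Both tumours were above the normal prostates, but the difference did not pass (log2 fold change 2.26, SE 0.62, limma adjusted p = 0.0652, 0.0116 to 0.332 over the alternatives run). It passed with FPKM as deposited (2.66, adjusted p = 0.0398), with a pseudocount of 0.1 (4.95, adjusted p = 0.0394), by voom (5.62, adjusted p = 0.0428) and without either tumour. The tumours' deposited intervals, 8.22 to 12.1 and 1.55 to 3.86 FPKM, did not overlap.

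Neurod1 had no value above 0 in normal prostate, with 1.80 in tumour 1 and 0.424 in tumour 2. These values rest on 9.6 and 2.0 implied fragments, and the deposited intervals, 0.858 to 3.99 and 0 to 1.54 FPKM, overlapped, so that a difference between the tumours was not detectable at this depth. Within-library ratios do not depend on the scaling. The ratio of Sox2 to Pou3f2 was 0.364 in tumour 1 and 13.5 in tumour 2.

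The order of the 9 factors differed between the tumours. In tumour 1 it ran Insm1, Hes6, Prox1, Pou3f2, Sox2, Neurod1, Onecut2, with Foxa2 and Rest listed at 0. In tumour 2 it ran Hes6, Foxa2, Insm1, Sox2, Prox1, Rest, Pou3f2, Onecut2, Neurod1. Neighbours were often close. Foxa2 and Insm1 in tumour 2 had overlapping deposited intervals (71.1 to 94.1 and 62.7 to 80.1 FPKM), as had Sox2 and Prox1 (29.7 to 43.5 and 25.9 to 35.5 FPKM). A scaled FPKM of 10 was reached by 3 members in tumour 1, 5 in tumour 2 and 1 in each normal prostate. The summed level of the 9 was 219 in tumour 1 and 231 in tumour 2, against 40.4 and 42.7 in normal prostate.

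**Figure D2:**
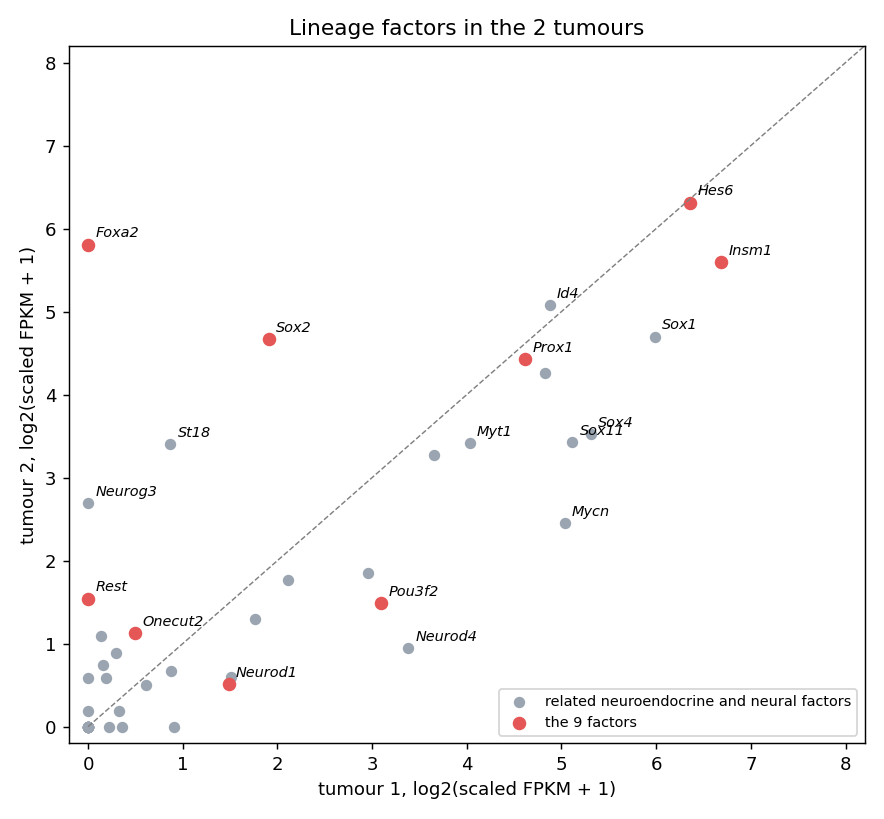
Level of the 9 factors and of related neuroendocrine and neural factors in tumour 1 (horizontal) and tumour 2 (vertical), both as log2(scaled FPKM + 1), with the line of equal level dashed. Foxa2 and Sox2 lie above the line and Pou3f2, Sox11 and Mycn below it, while Hes6 and Prox1 lie near it.

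Among other factors of the same lineages 8 rose. Of 42 related neuroendocrine and neural factors 17 were tested, 8 rose, 0 fell and 9 did not pass, and 14 were listed at 0 in all 4 libraries. Of the 17, 11 were below an FPKM of 1 in both normal prostates and entered through the tumours alone, so the count is a description, beside 9.85% of all genes tested called higher. Without the filter 2 of 28 rose, beside 245 of all 17072 genes. The median log2 fold change of the list, 2.14, was 1.80 without tumour 1 and 1.99 without tumour 2. Sox1 and Sox11, factors of neural precursors, were likewise listed at 0 in both normal prostates. Sox1 reached 62.4 in tumour 1 and 25.0 in tumour 2 (adjusted p = 0.0195) and Sox11 at 33.7 and 9.78 (adjusted p = 0.0262). Sox4, their relative in many progenitors, rose with a log2 fold change of 4.15 (standard error 0.72, limma adjusted p = 0.0301), with 38.8 in tumour 1 and 10.5 in tumour 2, a call lost without tumour 1. Myt1, a neural zinc finger factor, had no value above 0 in normal prostate and reached 15.3 in tumour 1 and 9.64 in tumour 2 (adjusted p = 0.0204). Mycn, the MYC family member of neural tumours, lay at 31.8 in tumour 1 and 4.47 in tumour 2 and was listed at 0 in both normal prostates (adjusted p = 0.0520). Neurog3, the factor that starts endocrine differentiation in the pancreas, was listed at 0 in 3 libraries and lay at 5.45 in tumour 2.

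Among Notch pathway genes, Hes1, the repressor that Hes6 opposes, fell. Levels of 49.2 and 36.8 in normal prostate stood against 2.98 in tumour 1 and 5.06 in tumour 2 (log2 fold change -3.15, SE 0.39, limma adjusted p = 0.0210), a call lost without tumour 1. The ratio of Hes6 to Hes1 within a library was 27.3 in tumour 1 and 15.5 in tumour 2, against 0.718 and 1.07 in normal prostate. In the list of 34 genes, 28 were tested, 4 rose, 1 fell and 23 did not pass, with a median of 0.49. These counts are near the shares over all genes tested, 9.85% higher and 8.27% lower. Of the 28, 6 were below an FPKM of 1 in both normal prostates, as were 13.8% of all genes tested. They entered through the tumours alone, Mfng and Dll3 among them, so a difference was built into their entry. Left unscaled, FPKM gave 10 that rose and 1 that fell, beside 3676 and 427 of all 13162 genes tested. Without the filter there was 1 of each, beside 245 higher and 249 lower of all 17072 genes. Mfng, a glycosyltransferase that tunes Notch receptors, rose most (3.67, SE 0.43, adjusted p = 0.0204), from 1.14 and 0.772 to 29.4 and 19.4. The other rises were those of the ligands Dll3 (adjusted p = 0.0330) and Jag2 (adjusted p = 0.0270) and of Hey1, a Notch target (adjusted p = 0.0396). Dll3, which acts inside the cell against Notch and is a surface antigen of neuroendocrine tumours, was listed at 0 in normal 1, lay at 0.643 in normal 2 and reached 6.53 and 5.21 in the tumours. The call of Jag2 was lost without tumour 1, and those of Dll3 and Hey1 without tumour 1, without tumour 2, under quantile normalization and with a pseudocount of 0.1.

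Rest was low in all libraries. It lay at 1.37 and 1.94 in the normal prostates and at 1.91 in tumour 2, and was listed at 0 in tumour 1. No Rest value rests on more than 16 implied fragments. The groups overlapped and the difference did not pass (log2 fold change -0.63, SE 0.61, limma adjusted p = 0.476), with the opposite sign without tumour 1 (0.18) and a larger difference by voom (-2.46). A listing at 0 in tumour 1 alone was shared by 585 genes, 4.44% of those tested. The gene tables do not separate the isoforms of Rest, and isoforms were not analysed here.

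Among genes that work with or against Rest, 4 rose and 1 fell. Of 25 such genes 24 were tested and 19 did not pass, with a median of 0.45, where 9.85% of all genes tested were called higher and 8.27% lower. Left unscaled, FPKM gave 11 that rose and 0 that fell, beside 3676 and 427 of all 13162 genes tested. Without the filter 0 passed in either direction, beside 245 higher and 249 lower of all 17072 genes. In that setting 9 of 25 had an unadjusted p under 0.05, as had 30.9% of all genes. Srrm4, the neural splicing factor that switches Rest to its truncated form, had no value above 0 in normal prostate and reached 6.14 in tumour 1 and 2.81 in tumour 2 (limma adjusted p = 0.0345). Its paralog Srrm3 was listed at 0 there too and lay at 13.6 and 5.99 (adjusted p = 0.0256). These 2 of the 24 entered the test through the tumours alone, so a difference was built into their entry and their calls are a description. Srrm4 and Srrm3 were higher in tumour 1 than in tumour 2, and a link to the Rest level was not tested. Rcor2, a corepressor of the Rest complex, rose to 9.35 and 5.90 from 1.54 and 0.696 (2.03, SE 0.47, adjusted p = 0.0477), a call kept in 3 of 13 alternatives. Rcor1, the main CoREST corepressor, lay at 3.33 and 3.25 in the normal prostates and at 10.3 and 13.5 in the tumours and did not pass (adjusted p = 0.0528). Hdac2, a deacetylase of the complex, rose by a log2 fold change of 1.75 (standard error 0.41, limma adjusted p = 0.0496), a call kept in 4 of 13 alternatives. Sin3b, a scaffold of the other Rest corepressor arm, had a log2 fold change of -2.32 and fell (standard error 0.39, limma adjusted p = 0.0282). That call was lost when FPKM was left unscaled, without the filter and without tumour 1.

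**Figure D3:**
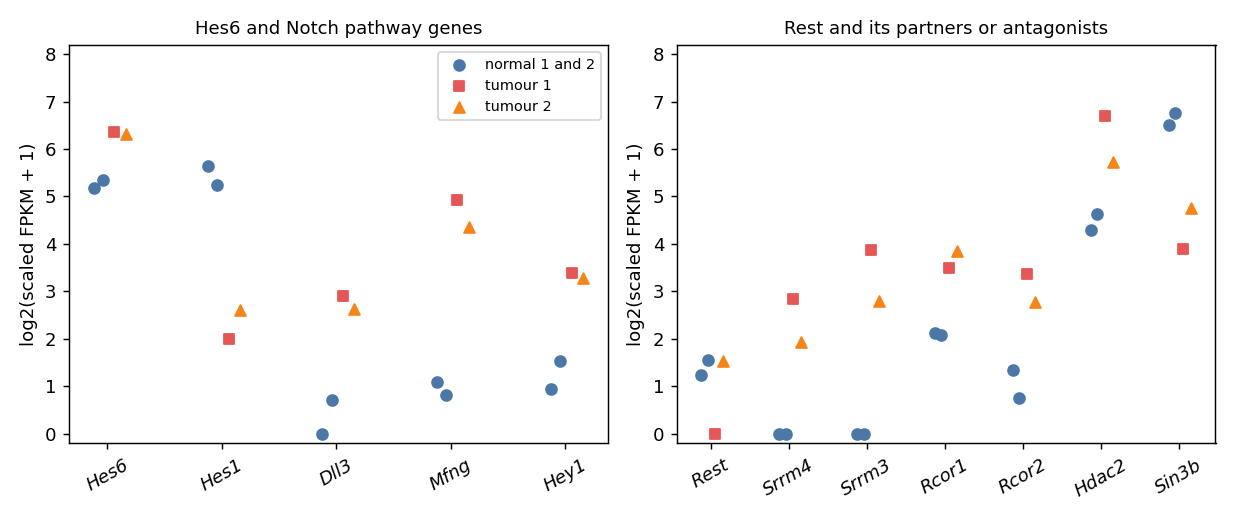
Level of Hes6 with Notch pathway genes (left) and of Rest with its partners and antagonists (right) as log2(scaled FPKM + 1), with a point per library. Hes1 lies at 49.2 and 36.8 scaled FPKM in the normal prostates and at 2.98 and 5.06 in the tumours, while Srrm4 and Srrm3 are listed at 0 in both normal prostates.

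Among neuroendocrine effector genes, those of hormone granules, amine synthesis and neuronal structure, 32 rose. Of 42 such genes 37 were tested, 0 fell and 5 did not pass, with 9.85% of all genes tested called higher. In both normal prostates 29 of the 37 were below an FPKM of 1, so they passed the filter through the tumours alone and a difference was built into their entry. Their count is a description. Without the filter it was 18 of 42, beside 245 of all 17072 genes. The median log2 fold change of the list, 4.25, was 3.92 without tumour 1 and 3.96 without tumour 2. Over all genes tested these values were 0.07, 0.15 and 0.11. Summed, they gave 2383 in tumour 1 and 2198 in tumour 2, close to each other and far above the 73.8 and 50.9 of the normal prostates. Stmn3, a neuronal stathmin, lay at 0.997 in normal 1, was listed at 0 in normal 2 and reached 283 and 102 in the tumours (limma adjusted p = 0.0195), a call lost without tumour 1. Chgb, a granule protein, was listed at 0 in normal 1, lay at 0.249 in normal 2 and reached 143 and 39.0 (adjusted p = 0.0203). Tph1, the enzyme that starts serotonin synthesis, and Pcsk1, a prohormone convertase, had the pattern of Foxa2, listed at 0 in 3 libraries and at 141 and 29.7 in tumour 2.

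Among luminal genes 5 fell, where 8.27% of all genes tested were called lower. All 23 were tested, 0 rose and 18 did not pass, with a median of -2.91, at -4.33 in tumour 1 and -1.22 in tumour 2. With FPKM as deposited 4 fell, beside 427 of the 13162 genes tested. Leaving out tumour 2 moved the middle log2 fold change of the list to -4.20, and leaving out tumour 1 moved it to -1.15. Over all genes tested these values were 0.11 and 0.15. Pbsn, the secretory gene whose rat counterpart lends the transgene its promoter, lay at 7022 and 6280 in the normal prostates, was listed at 0 in tumour 1 and lay at 14.2 in tumour 2 (limma adjusted p = 0.0204). Foxa1, the luminal pioneer factor, lay at 77.8 and 71.4 in the normal prostates and at 39.6 and 38.2 in the tumours, and did not pass (limma adjusted p = 0.0630). The lower level rests on the scaling, since the deposited FPKM, 61.7 and 49.2 in normal prostate and 53.2 and 57.4 in the tumours, overlapped (log2 fold change 0.00).

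Several of the 9 factors are also made by other cells, so marker lists of those cells were read in the same libraries. Prox1 marks lymphatic endothelium, whose 9 markers summed to 30.1 and 31.1 in the normal prostates, 22.0 in tumour 1 and 88.7 in tumour 2. Most of the normal sums came from Nr2f2, at 25.0 and 24.9 there, 7.06 in tumour 1 and 12.65 in tumour 2. Lyve1, Flt4, Reln and Sox18 were higher in both tumours than in normal prostate, and the remaining markers overlapped. Of these 9, 4 and 2 were listed at 0 in the normal prostates, 2 in tumour 1 (Ccl21a and Mmrn1) and 0 in tumour 2. Of the 5 tested, Sox18, a factor of vessel endothelium, rose, with 1.31 and 0 in normal prostate, 9.33 in tumour 1 and 6.17 in tumour 2 (limma adjusted p = 0.0466), and the other 4 did not pass. Lyve1, a receptor of lymphatic vessels, lay at 1.55 in tumour 1 and 18.8 in tumour 2. The part of lymphatic cells in the Prox1 level was not tested. Sox2 is made by basal epithelium and by Schwann cells. The 10 basal markers summed to 98.5 and 98.1 in the normal prostates, 27.8 in tumour 1 and 71.8 in tumour 2, with 7 of 10 listed at 0 in tumour 1 and 1 in tumour 2. Trp63, their defining factor, was listed at 0 in both tumours and in normal prostate had only 3.9 and 2.7 implied fragments. The keratin gene Krt17 lay at 2.13 and 0 in the normal prostates, 2.52 in tumour 1 and 31.0 in tumour 2. The other keratin genes of the list were lower in both tumours than in normal prostate. Krt15 lay at 39.25 and 45.67 in normal prostate, 0 in tumour 1 and 19.5 in tumour 2. Krt5 went from 24.8 and 16.3 to 0 and 2.69, and Krt14 from 6.39 and 7.78 to 0 and 2.33. The part of basal cells in the Sox2 level was not tested. The 12 Schwann markers summed to between 16.9 and 37.4, and the defining factor Sox10 was listed at 0 in all 4 libraries. Of 13 markers of autonomic neurons, the noradrenaline-making enzyme gene Dbh was listed at 0 in all 4 libraries, while the summed level was 119 in tumour 1 and 99.2 in tumour 2, against 35.4 and 37.4 in normal prostate. Most of that sum in tumour 1 came from the filament genes Prph (58.5), Nefl (26.9) and Nefm (13.4). In tumour 2 the vesicle transporter gene Slc18a2 gave 23.9, Nefl 23.8, the receptor gene Ret 18.6, Nefm 13.3 and Prph 9.62. Th, the enzyme that starts catecholamine synthesis, was listed at 0 in both normal prostates, with 2.39 in tumour 1 and 0.625 in tumour 2. Most of the normal sums came from Gata2, also on the luminal list, at 28.17 and 22.59 there and lower in both tumours (12.4 and 7.67). Slc6a2 fell from 5.393 and 11.97 to 0.0176 and 0.4969 (limma adjusted p = 0.0330). Of the 7 tested, Nefl and Nefm rose, 1 fell and 4 did not pass. In both normal prostates 4 of the 7 were below an FPKM of 1, so a difference was built into their entry. The part of neurons in the levels of the 9 factors was not tested. The single markers given here by level, and Cdh1 above, were chosen after their values were seen. The 11 leukocyte markers summed to 8.05 and 5.26 in normal prostate and to 110 in tumour 1 and 257 in tumour 2. Most of the tumour sums came from Lyz2 (94.2 and 206), which rose (limma adjusted p = 0.0195). Cd68 rose from 0 and 0 to 13.05 and 31.19 (adjusted p = 0.0208), and it entered the test through the tumours alone. Of the 4 tested, 2 rose and 2 did not pass. Itgam, which was not tested, went from 0 and 0 to 0.369 and 6.57. Ptprc, Adgre1 and Csf1r overlapped between the groups, while Cd3e and Cd3g were listed at 0 in both tumours. The 11 fibroblast and smooth muscle markers summed to 702 and 638 against 54.2 and 480. Acta2, Myh11, Tagln, Des and Cnn1 were lower in both tumours than in normal prostate. Col1a1, Col3a1, Lum and Pdgfra were higher in both, though none was called, and Col1a2 and Dcn overlapped. Col3a1 went from 7.64 and 4.70 to 16.4 and 112. The parts of leukocytes and stroma in the levels of the 9 factors were not tested. The 8 seminal vesicle markers were listed at 0 in every library.

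**Figure D4:**
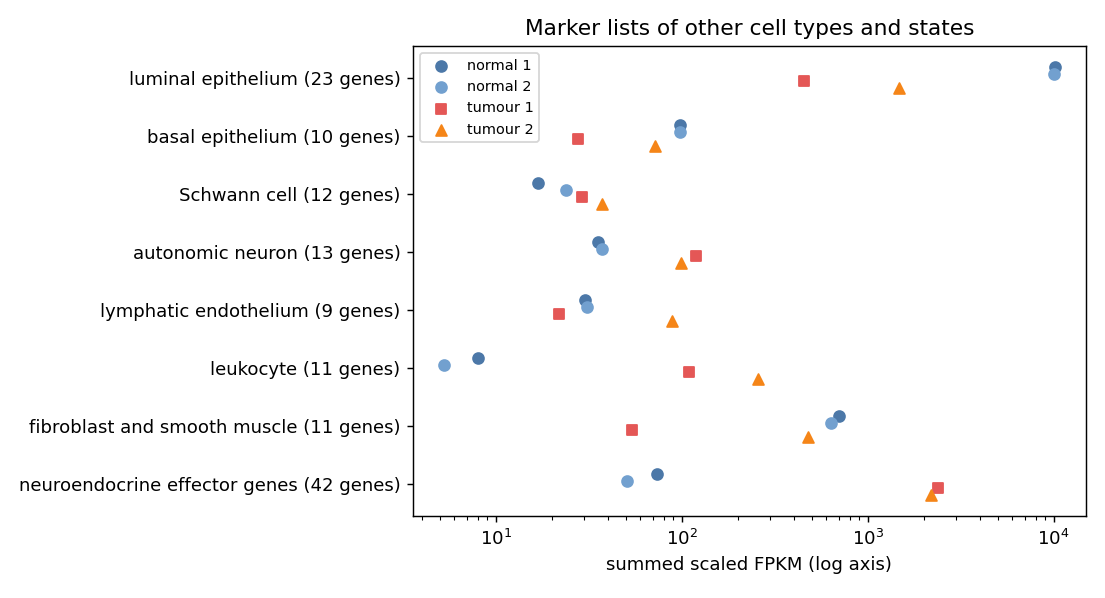
Summed scaled FPKM of each marker list in the 4 libraries, on a log axis. The neuroendocrine effector genes lie at 2383 and 2198 in the tumours, and the luminal genes at 454.5 in tumour 1 and 1467 in tumour 2 against 9990 or more in the normal prostates.

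Genes whose pattern was most like that of a member were sought among 10570 genes that reach a scaled FPKM of 5 in any library, leaving out predicted genes with Rik or Gm symbols. The measure was the Euclidean distance between profiles of log2(scaled FPKM + 1), each centred on its mean over the 4 libraries, which share their depth and scaling with the members, so it is a description. Nearest to Insm1 were Ly6h and Eef1a2, at distances of 0.28 and 0.36. Eef1a2, the neural and muscle form of an elongation factor, lay at 110 and 66.6 in the tumours. Nearest to Prox1 were Hap1 (0.10) and the neurofilament gene Nefl (0.20). Hes6 had Smurf2 (0.04) and Hprt (0.08) as its nearest, and Hprt, an enzyme of purine salvage that most cells use, lay at 26.0 and 30.2 in the normal prostates and at 63.4 and 57.4 in the tumours. Nearest to Foxa2 were Mir719 (0.07) and the crystallin gene Cryba2 (0.08), which was listed at 0 in 3 libraries and lay at 51.6 in tumour 2. Sox2 had Fos (0.27) and Penk (0.34), and Pou3f2 had Fsd1l (0.10) and Glra2 (0.13).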

How the data were processed

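RNA-seq of 2 normal prostates and 2 TRAMP tumours was analysed from 1 Cufflinks gene table per library, in which the authors deposited FPKM with the bounds of a confidence interval. The tools, per the submitters' processing notes, include Cufflinks and Cuffdiff (2.1.1), TopHat2 (2.0.8) and Trim Galore, with mm10 as the build. For their settings, annotation and strand use, the sources used here give nothing. Overlapping genes therefore cannot be told apart. Rows with names turned into dates (27 per table) were left out and rows of a shared name were summed. Deposited starts count from 0 and are given from 1.

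FPKM was scaled by a median-of-ratios factor per library, from 11469 genes (0.793, 0.689, 1.34 and 1.50). Genes with an FPKM of at least 1 in at least 2 libraries were tested on log2(scaled FPKM + 1) with limma 3.58.1 in R 4.3.3, with an intensity trend, two-sided, with Benjamini-Hochberg adjustment and a threshold of 0.05 (2 residual and 2.85 prior degrees of freedom). An exact permutation test of 2 against 2 cannot pass and was not used. Implied fragments are the square of 2 times FPKM over the distance from FPKM to its upper bound. They cover counting error only, and among rows of 1 start group with at most 20 of them, 71.1 to 72.5% per library lay within 0.1 of a whole number (20% by chance); voom on them called 1047 genes higher and 988 lower. A gene listed at 0 may be a failed estimate. Sequences are from RefSeq tables of GRCm38.p6, and exons from GENCODE M21. Python 3.11.15, pandas 2.3.3, numpy 2.4.6 and matplotlib 3.10.9 were used.

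The members, the gene lists and the tests were chosen with earlier results of these data known. Genes named are the 9 members, up to 5 called genes per direction of each list by size of change, up to 4 untested genes per list that reach a scaled FPKM of 5, a few fixed names (such as Hes1, Srrm4, Rcor1 and Foxa1) and the 2 genes most alike to each member that reaches 5; a few of these are not reported here. The alternatives were 3 scalings, 2 pseudocounts, 2 filters, no intensity trend, voom on implied fragments and leaving out each library.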

Additional observations from a re-analysis of the deposited data

How the results depend on the processing

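Of the tested members, Insm1 and Prox1 kept their calls in 11 of 13 alternatives and lost them without a normal prostate (5.46 to 6.46 for Insm1 and 4.36 to 4.70 for Prox1 over the omission of each library, the latter set by the pseudocount since normal prostate is listed at 0), where limma called 0 genes in either direction and 0 members, against 3 members without tumour 1 or tumour 2. Hes6 lost its call without the filter (1.07), with a filter of 1 library (1.07), without the intensity trend (1.07), by voom (1.05) and without any 1 library (0.94 to 1.12). Pou3f2 passed with FPKM as deposited (2.66), with a pseudocount of 0.1 (4.95), by voom (5.62) and without tumour 1 or tumour 2 (1.41 and 2.93), a fit that gives the remaining tumour the spread of the normal pair. Rest turned sign without tumour 1 (0.18, against -1.30 without tumour 2) and lay at -1.95 with a pseudocount of 0.1 and -2.46 by voom, and Sox2 passed in none of 13 alternatives. For members without a test, the log2 difference of Onecut2 (0.79) moved to 2.86 and 1.27 with pseudocounts of 0.1 and 0.5 and to 4.30 by voom, and that of Neurod1 to 3.32 with a pseudocount of 0.1 and 2.54 by voom. The count of all genes called was 3676 (higher) and 427 (lower) when FPKM was left unscaled, 2537 and 554 with the FPKM sum, and 245 and 249 without the filter. Without 1 library it ranged from 0 to 1902 higher and from 0 to 1888 lower (460 lower without tumour 1). Without normal 1 and normal 2, 2189 and 2192 genes had an unadjusted p under 0.05. Values under about 20 implied fragments, those of Neurod1 and Rest, of Onecut2 and Sox2 in tumour 1, and of every member but Hes6 in normal prostate, limit what can be said of those genes. No paired analysis was possible because the normal prostates came from wild-type males and the tumours from transgenic males.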

Other observations

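Some effector and amine genes, chosen after their values were seen, had other levels in 1 tumour than in the other. Tph1 was listed at 0 in tumour 1 and lay at 141 scaled FPKM in tumour 2. Slc18a2, which loads amines into vesicles, lay at 0.574 in tumour 1 and 23.9 in tumour 2, against 0.776 and 0.700 in the normal prostates. Ddc, an amine-forming decarboxylase, was close in both tumours, at 202 and 239. With 1 library of each tumour, these levels were not tested against each other.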
